A study of Mus musculus with 9 samples.

Results

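The 8 genes Krt19, Krt8, Krt18, Msln, Upk3b, Upk1b, Wt1 and Lrrn4, known as markers of mesothelium and simple epithelium, were followed in RNA of whole mouse aorta. They were found by symbol among the 37668 genes of the authors' deposited table, and all 8 were there. Genes that reached 1 FPKM in any group were analysed (FPKM, mapped fragments scaled by transcript length and by the size of the library). All 8 were among these 14227 genes, Wt1 only through its value in the Cdh5Cre group. The study asked how the aorta differs when the angiotensin II type 1a receptor is removed from smooth muscle or from endothelium. All 9 mice were males aged 90 days of the background 129T2SvEmsJ:C57Blk/6J and carried the floxed receptor allele (AT1ar floxed). The Sm22Cre group of 3 libraries also carried Sm22-Cre, driven by the promoter of a smooth muscle gene. The Cdh5Cre group of 3 libraries carried Cdh5-Cre, driven by the promoter of an endothelial cadherin gene. The floxed group of 3 libraries carried no Cre transgene, and no group without the floxed allele was compared. The series title names Marfan syndrome, while the sample labels give only the receptor allele and the Cre transgene.

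Mesothelium is the sheet of flat cells that lines the pleural, pericardial and peritoneal cavities, and its layer over the heart is the epicardium, which continues onto the roots of the great vessels. It arises from mesoderm but forms a barrier as epithelia do, and it carries the simple keratins, surface proteins such as mesothelin and several uroplakin-like proteins. Keratins are obligate partners: a type II chain such as Krt8 pairs with a type I chain such as Krt18 or Krt19 to form the intermediate filaments of simple epithelia. Wt1 is a zinc finger transcription factor of mesothelium and epicardium.

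The deposited table holds 1 value per gene and group, made from the group's 3 libraries together, and their depth is unknown. It gives no spread between mice, so no test was possible and the differences below have no replicate check. Agtr1a, the targeted gene, stood at 1.21 FPKM in Sm22Cre, 1.32 in Cdh5Cre and 1.75 in floxed. The summed FPKM of all genes came to 500015 in Sm22Cre, 607867 in Cdh5Cre and 495724 in floxed. Smooth muscle myosin Myh11, a defining marker of the aortic media, stood at 1267 FPKM in Sm22Cre, 1142 in Cdh5Cre and 1341 in floxed, with the authors' status FAIL in every pair. In whole tissue, fewer cells of a type and less RNA per cell cannot be told apart.

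Krt8 and Krt18 encode partners in 1 filament and lie next to each other, yet their levels differed between the groups to unlike degrees, and their promoters are therefore shown. The sequences are RefSeq's on build GRCm38.p6, from 250 bases before to 50 bases after the start site. That build is not the mm9 of the deposited loci. The table of promoters held 4 of the 8 genes, Krt8, Krt18, Upk3b and Lrrn4, and those of Krt19, Msln, Upk1b and Wt1 are not shown. Capitals mark matches to 4 motifs, searched on both strands: the TATA box core TATAAA, the GC box GGGCGG, the TEAD core GGAATG and the AP-1 site TGANTCA.
Krt8, chr15:102004293-102004592, minus strand: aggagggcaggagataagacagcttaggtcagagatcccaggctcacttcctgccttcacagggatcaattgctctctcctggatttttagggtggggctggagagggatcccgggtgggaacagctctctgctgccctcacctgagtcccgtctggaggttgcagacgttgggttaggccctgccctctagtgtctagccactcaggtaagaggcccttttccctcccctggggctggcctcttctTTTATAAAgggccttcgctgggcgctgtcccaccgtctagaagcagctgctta
Krt18, chr15:102027966-102028265, plus strand: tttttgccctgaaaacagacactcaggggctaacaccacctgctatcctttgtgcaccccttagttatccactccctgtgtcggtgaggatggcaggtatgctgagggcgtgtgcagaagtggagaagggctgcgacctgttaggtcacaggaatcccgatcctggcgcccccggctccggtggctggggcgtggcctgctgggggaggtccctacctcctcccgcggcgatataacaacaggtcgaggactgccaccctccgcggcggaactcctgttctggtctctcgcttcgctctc
The Krt8 window held TATAAA at base 250 (offset -1 from the start site), overlapped by its reverse complement TTTATA at base 248, and none of the other motifs. Whether this match acts as a TATA box was not tested. The Krt18 window held no exact match to any of the 4. It had 17 CG dinucleotides, against 6 in Krt8 and a median of 7 over all 32851 promoters of the table. Among all of these, 13.6% held TATAAA, 35.7% GGGCGG, 14.7% GGAATG and 7.81% TGANTCA on either strand. Upk3b held the TEAD core at base 10 of its window and Lrrn4 at base 55, as their only matches. A match is a run of letters in a window and was not tied to any value below.

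The 8 genes were of low to middling level in the aorta, and their order was nearly the same in every group. Krt18 was highest, at 11.3 FPKM in Sm22Cre, 14.5 in Cdh5Cre and 12.2 in floxed. Upk3b and Msln followed, and these 3 genes together made up 78.9% of the summed level of the 8 in Sm22Cre, 68.7% in Cdh5Cre and 74.7% in floxed. Wt1 was lowest in every group. The highest level was 15.8 times the lowest in Sm22Cre, 11.9 times in Cdh5Cre and 12.7 times in floxed. Among all genes analysed, the level in floxed stood at percentile 55.6 for Krt18 and at percentile 3.46 for Wt1. The authors' status was OK for all 8 genes in all 3 pairs of groups, as it was for 70.5% of the genes analysed. None shared or overlapped its listed locus with another gene of the table.

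**Figure D1:**
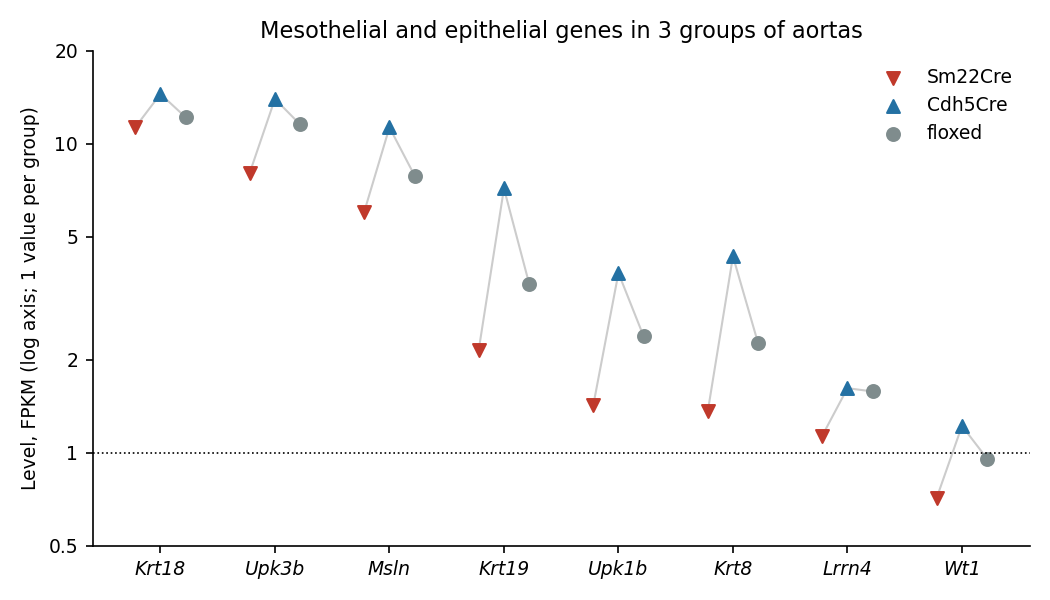
Level of each of the 8 genes in FPKM on a log axis, 1 value per group, with Sm22Cre, Cdh5Cre and floxed from left to right and thin lines joining a gene's values. The dotted line is the filter at 1 FPKM; each gene was highest in Cdh5Cre and lowest in Sm22Cre, from Krt18 (11.3, 14.5 and 12.2 FPKM) to Wt1 (0.72, 1.22 and 0.96).

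All 8 genes had their highest value in Cdh5Cre and their lowest in Sm22Cre, though Wt1 passed the filter only through its Cdh5Cre value. Of all genes analysed, 18% had that order, and of those between 1 and 15 FPKM in floxed 16.9% did. Summed over the 8 genes, the level was 32.2 FPKM in Sm22Cre, 57.9 in Cdh5Cre and 42.3 in floxed. The sum was 23.9% lower in Sm22Cre and 36.9% higher in Cdh5Cre than in floxed. Rescaled to the same total in each group (TPM, a gene's share of the summed FPKM), it was 64.4 in Sm22Cre, 95.2 in Cdh5Cre and 85.3 in floxed, which left the sum 11.6% higher in Cdh5Cre than in floxed.

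Among the keratins, Krt19 (type I) had the widest range of the 8 genes over the 3 groups, as a ratio of highest to lowest. Krt19 (ENSMUSG00000020911, mm9 chromosome 11, 100002124 to 100009979) stood at 2.16 FPKM in Sm22Cre, 7.16 in Cdh5Cre and 3.52 in floxed. It was 1.63-fold lower in Sm22Cre and 2.03-fold higher in Cdh5Cre than in floxed, as plain ratios of FPKM, and 3.32-fold lower in Sm22Cre than in Cdh5Cre. It was the only one of the 8 whose plain ratio of Cdh5Cre to floxed reached 2-fold.

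Krt8 (type II, ENSMUSG00000049382, mm9 chromosome 15, 101827142 to 101834773) stood at 1.36 FPKM in Sm22Cre, 4.32 in Cdh5Cre and 2.26 in floxed. Its plain ratio was 1.66-fold lower in Sm22Cre and 1.91-fold higher in Cdh5Cre than in floxed, close to the sizes of Krt19. Mouse has a processed pseudogene of Krt8, not analysed here, and no source used here says how fragments of near-identical copies were divided. Krt18 (type I, ENSMUSG00000023043, mm9 chromosome 15, 101858647 to 101862457), 23873 bases away with no listed gene between, was only 1.08-fold lower in Sm22Cre and 1.19-fold higher in Cdh5Cre than in floxed. The level of Krt8 came to 12.0% of that of Krt18 in Sm22Cre, 29.8% in Cdh5Cre and 18.5% in floxed. The level of Krt19 came to 19.1%, 49.4% and 28.9% of that of Krt18 in the same groups. Krt18 thus exceeded its type II partner in every group, by 9.95 FPKM in Sm22Cre, 10.2 in Cdh5Cre and 9.92 in floxed.

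Other keratins help to place these 3. Of 54 keratin genes in the table, 6 reached 1 FPKM in a group, namely Krt18, Krt80, Krt19, Krt7, Krt8 and Krt10, and 23 were listed at 0 in every group. Krt80, Krt10 and Krt14 lie outside the rule for named genes and were chosen after their values were seen. Krt80, the remaining abundant type II chain, stood at 10.1 FPKM in Sm22Cre, 13.0 in Cdh5Cre and 9.50 in floxed, so unlike the 8 genes it was not lowest in Sm22Cre. Krt7, the type II keratin of many simple epithelia and of mesothelium, stood at 1.76 FPKM in Sm22Cre, 4.71 in Cdh5Cre and 2.56 in floxed, the order of Krt8. Krt8 and Krt7 together reached 23.2% of the level of Krt18 and Krt19 in Sm22Cre, 41.7% in Cdh5Cre and 30.7% in floxed. Krt80, more abundant than either type II gene in every group, is not in that sum. These shares therefore do not give the balance of all type II to type I chains. The basal keratin Krt14 stayed below 1 FPKM, at 0.16 in Sm22Cre, 0.93 in Cdh5Cre and 0.40 in floxed.

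**Figure D2:**
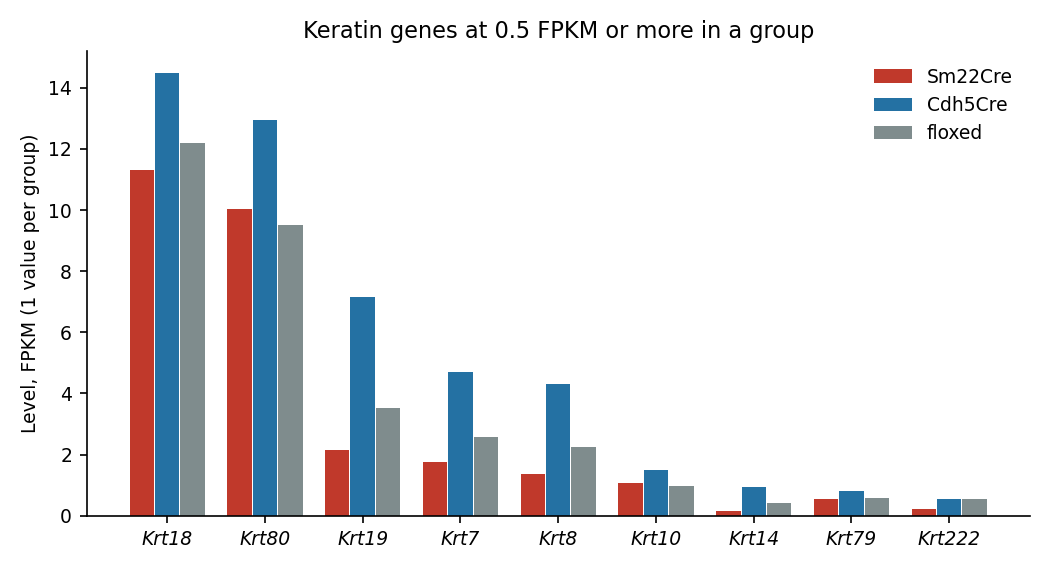
Bars give the level in FPKM, 1 value per group, of keratin genes at 0.5 FPKM or more in a group, with Sm22Cre, Cdh5Cre and floxed from left to right. Krt19, Krt7 and Krt8 stood at 7.16, 4.71 and 4.32 FPKM in Cdh5Cre, and Krt18 and Krt80 were near each other at 14.5 and 13.0.

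The surface proteins followed the same order of groups. Msln (ENSMUSG00000063011, mm9 chromosome 17, 25885559 to 25891272) encodes mesothelin, a protein anchored to the outer face of the cell membrane that binds the mucin Muc16. It stood at 6.03 FPKM in Sm22Cre, 11.3 in Cdh5Cre and 7.88 in floxed. That was 1.31-fold lower in Sm22Cre and 1.43-fold higher in Cdh5Cre than in floxed. No value for Muc16 was used here.

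Upk3b (ENSMUSG00000042985, mm9 chromosome 5, 136514366 to 136521173) encodes a uroplakin-type membrane protein and marks mouse mesothelium. It stood at 8.06 FPKM in Sm22Cre, 14.0 in Cdh5Cre and 11.5 in floxed. Its lower value in Sm22Cre (1.43-fold) was larger in ratio than its higher value in Cdh5Cre (1.21-fold), each against floxed. Upk1b (ENSMUSG00000049436, mm9 chromosome 16, 38773297 to 38800316) encodes a tetraspanin that in bladder pairs with a uroplakin of type III. It stood at 1.42 FPKM in Sm22Cre, 3.82 in Cdh5Cre and 2.38 in floxed, which was 1.67-fold lower and 1.60-fold higher than floxed. The bladder uroplakins Upk2 and Upk3a were listed at 0 in every group, and Upk1a stood at 0.22 FPKM in Sm22Cre, 0.36 in Cdh5Cre and 0.21 in floxed.

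Wt1 and Lrrn4 had the smallest values of the 8 in every group. Wt1 (ENSMUSG00000016458, mm9 chromosome 2, 104966686 to 105013773) stood at 0.72 FPKM in Sm22Cre, 1.22 in Cdh5Cre and 0.96 in floxed, a plain ratio 1.34-fold lower and 1.28-fold higher than floxed. Its antisense neighbour Wt1os ends 18 bases before it and stood at 0.18 FPKM in Sm22Cre, 0.067 in Cdh5Cre and 0.028 in floxed. Lrrn4 (ENSMUSG00000043110, mm9 chromosome 2, 132694041 to 132706627), a leucine-rich repeat protein known from neurons and used as a mesothelial marker in mouse, stood at 1.13 FPKM in Sm22Cre, 1.62 in Cdh5Cre and 1.58 in floxed. It was 1.39-fold lower in Sm22Cre than in floxed. The value in Cdh5Cre exceeded that in floxed by only 2.46%.

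For comparison with all genes, ratios were taken on log2(FPKM + 1), a scale that understates differences of low genes, and called past 2-fold. In Sm22Cre over floxed, all 8 genes were lower, as were 47.9% of all genes, and their median log2 ratio was -0.40, against 0.01 over all genes. None of the 8 reached 2-fold, and 0.33% of all genes were lower by that much. All genes spread narrowly in this comparison, with an SD of 0.19. Of the 8 genes, 6 lay below percentile 5 of all genes, led by Krt19 (-0.52, percentile 1.10), Upk1b (-0.48, percentile 1.20) and Upk3b (-0.47, percentile 1.24). Wt1 lay at percentile 7.14 and Krt18 at percentile 18.6, inside the bulk of genes.

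In Cdh5Cre over floxed, all 8 genes were higher, as were 51.7% of all genes, with a median of 0.36 against 0.02 over all genes. None reached 2-fold on this scale, while 1.2% of all genes were higher by that much. This comparison spread more widely over all genes (SD 0.43), so that log2 ratios of like size stood out less. Krt19 (0.85, percentile 97.8) and Krt8 (0.71, percentile 95.4) were the 2 genes above percentile 95, and Lrrn4 (0.02, percentile 50.4) was in the middle. On TPM values the median of the 8 genes was 0.13 and that of all genes -0.25. There 5 of the 8 were higher and 3 lower: Krt18, Upk3b and Lrrn4 turned to -0.04, -0.02 and -0.19 in Cdh5Cre over floxed. All 8 lay above the shifted median, as they had on FPKM. Rescaling multiplies all genes of a group by the same factor, so this was nearly fixed in advance and is no further support. Both comparisons share the floxed values, so their ratios are not independent of each other.

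In Sm22Cre over Cdh5Cre, all 8 genes were lower, as were 50.7% of all genes, with a median of -0.77 against -0.01 over all genes. Krt19 (-1.37, percentile 0.49) and Krt8 (-1.17, percentile 0.77) were lower by 2-fold or more, as were 1.24% of all genes. Upk1b, at -0.99 and 2.68-fold in plain FPKM, lay just short of the threshold on this scale. Krt18 (-0.33) and Lrrn4 (-0.29) were the nearest to 0.

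**Figure D3:**
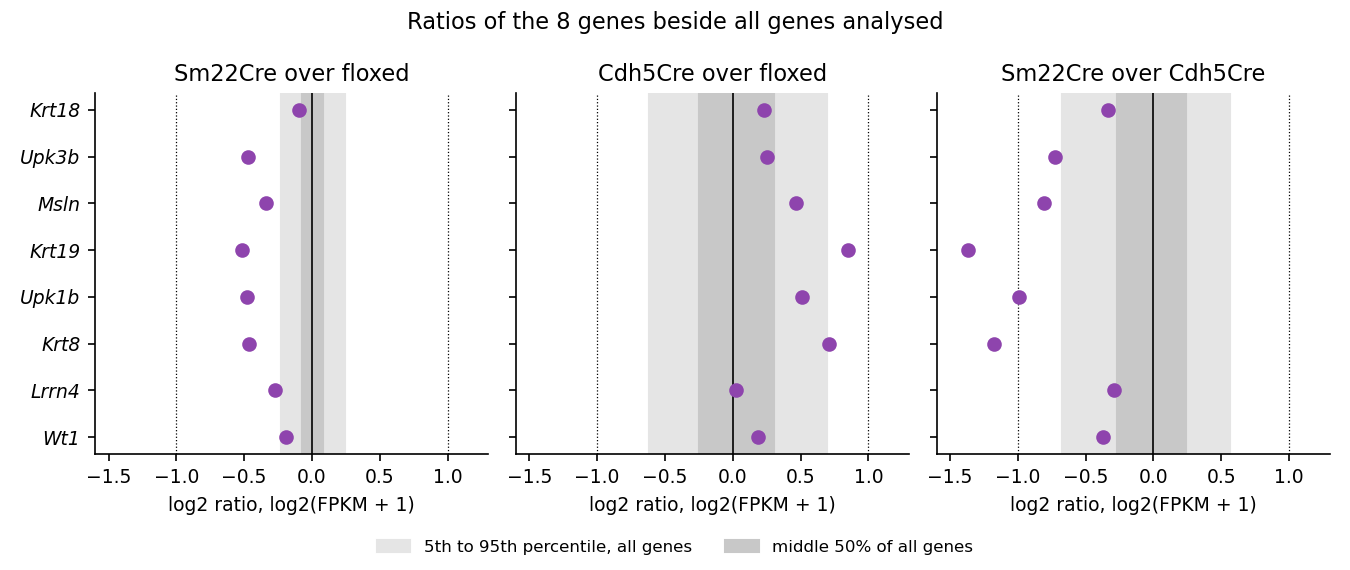
Log2 ratios of the 8 genes on log2(FPKM + 1) in the 3 comparisons, with the spread of all genes analysed in grey and dotted lines at 2-fold. In Sm22Cre over floxed 6 of the 8 lie below percentile 5 of all genes, in Cdh5Cre over floxed 2 lie above percentile 95, and in Sm22Cre over Cdh5Cre Krt19 (-1.37) and Krt8 (-1.17) pass 2-fold.

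The ratios of all genes also followed the length and GC content of the transcript. These 2 properties accounted for 3.78% of the variance in Sm22Cre over floxed, 44.8% in Cdh5Cre over floxed and 46.4% in Sm22Cre over Cdh5Cre, across 12317 genes, which are not independent replicates. Krt18 had the shortest transcript of the 8 genes (1437 bases, percentile 13.1) and Lrrn4 the longest (3715 bases, percentile 61.2). With the trend removed, all 8 genes kept lower values in Sm22Cre than in floxed (49.4% of all genes were lower), with a median of -0.40. In Cdh5Cre over floxed the median became 0.22, Krt18 turned to -0.13, and 7 of 8 genes were higher (47.1% of all genes). In Sm22Cre over Cdh5Cre 7 of 8 were lower (45.5% of all genes), Krt19 (-1.03) passed 2-fold, Krt8 (-0.90) did not, and Krt18 stood at 0.01.

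**Figure D4:**
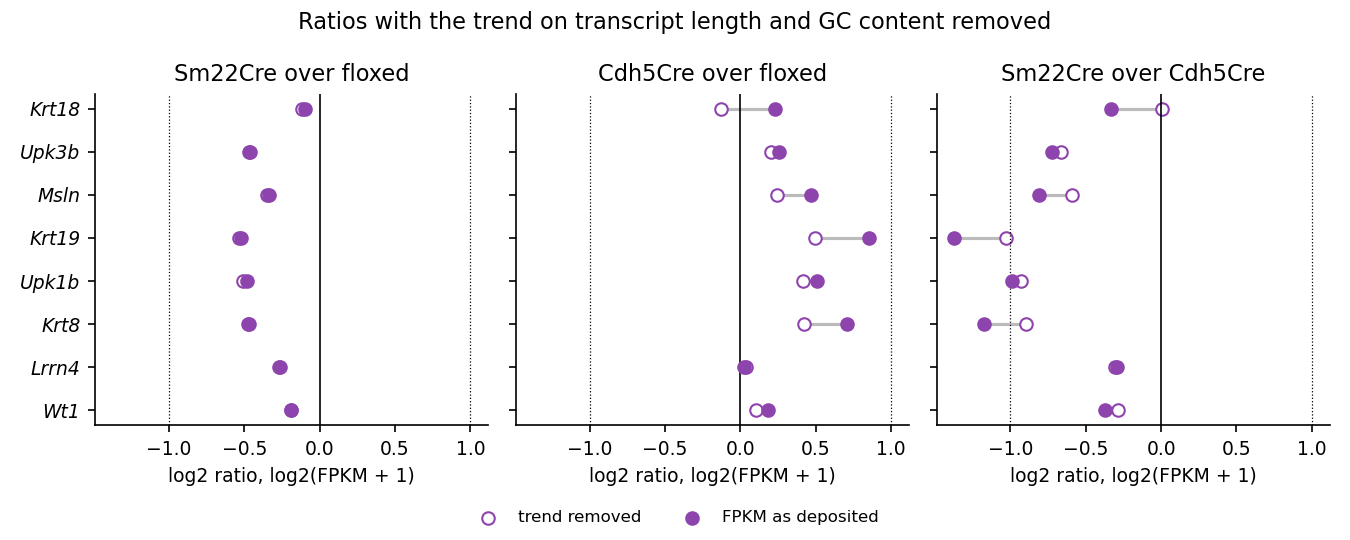
Log2 ratios of the 8 genes on log2(FPKM + 1) as deposited (filled) and with the trend on transcript length and GC content removed (open), with dotted lines at 2-fold. In Sm22Cre over floxed the points coincide or nearly so, and in the comparisons with Cdh5Cre Krt18 moves from 0.23 to -0.13 and from -0.33 to 0.01.

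Further markers of mesothelium and epicardium were read beside the 8 genes. Of 15 genes on that list, 13 were analysed, and 8 of these had the order of the 8 genes, highest in Cdh5Cre and lowest in Sm22Cre. Of all genes analysed, 18% had that order. Dmkn, counted among the genes with that order, passed the filter only through Cdh5Cre. It stood at 0.88 FPKM in Sm22Cre, 2.39 in Cdh5Cre and 0.93 in floxed. Of the 13, 11 were lower (47.9% of all genes) and 2 higher in Sm22Cre over floxed (median -0.25). In Cdh5Cre over floxed 10 were higher (51.7% of all genes) and 3 lower (median 0.47). None passed 2-fold in either. In Sm22Cre over Cdh5Cre, Krt7 (-1.05) and Tcf21 (-1.18) were lower by 2-fold or more. Tcf21, a transcription factor of epicardium and fibroblasts, stood at 6.33 FPKM in Sm22Cre, 15.6 in Cdh5Cre and 7.75 in floxed. The list's 2 most abundant genes went another way in Cdh5Cre, where they were lowest. The guidance factor gene Sema3d stood at 27.8 FPKM in Sm22Cre, 18.2 in Cdh5Cre and 31.0 in floxed. The epicardial transcription factor gene Tbx18 stood at 18.4, 12.5 and 19.4. In Sm22Cre over floxed both were lower, as the 8 genes were (Sema3d -0.15, Tbx18 -0.07). With the length and GC trend removed, Sema3d (-0.23) and Tbx18 (-0.38) were still lower in Cdh5Cre than in floxed. Of the 13, 9 were then higher (47.1% of all genes) and 4 lower in Cdh5Cre over floxed (median 0.29). All 13 were then lower in Sm22Cre over floxed (49.4% of all genes, median -0.28). Sema3d, Tbx18 and Tcf21 are expressed by other cells of the vessel wall as well.

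Genes of epithelia were read as well. Of 18 genes of epithelial junctions and identity, 2 reached 1 FPKM in Sm22Cre, 3 in Cdh5Cre and 3 in floxed. Only 4 were analysed, and 1 of these had the order of the 8 genes (18% of all genes). In Sm22Cre over floxed 2 were higher and 2 lower (47.9% of all genes), with a median of -0.04. In Cdh5Cre over floxed 3 were higher (51.7% of all genes) and 1 lower (median 0.30). With the length and GC trend removed these medians were -0.05 and 0.14. The defining genes Cdh1 (E-cadherin) and Epcam, named after their values were seen, stayed near 0: Cdh1 stood at 0.10 FPKM in Sm22Cre, 0.12 in Cdh5Cre and 0.076 in floxed, and Epcam at 0.030, 0.12 and 0.041. The claudin gene Cldn3, which has been described in other tissues too, was the highest at 6.72 FPKM in Sm22Cre, 9.70 in Cdh5Cre and 6.02 in floxed. Of 8 lung epithelial genes none reached 1 FPKM, with a sum of 0.92 FPKM in Sm22Cre, 1.94 in Cdh5Cre and 0.79 in floxed. Of 4 genes of thymic epithelium, the chemokine gene Ccl25 reached 1 FPKM, at 1.29 in Sm22Cre, 1.5 in Cdh5Cre and 0.96 in floxed. The transcription factor gene Foxn1 of the same list, also named after its values were seen, was listed at 0 in every group.

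Of 12 genes of heart muscle, 11 had the same order of groups, as did 18% of all genes. The exception was Ryr2, at 5.46 FPKM in Sm22Cre, 4.83 in Cdh5Cre and 6.22 in floxed. All 12 were lower in Sm22Cre than in floxed (47.9% of all genes), 7 of them by 2-fold or more (0.33% of all genes), with a median of -1.13. In Cdh5Cre over floxed 11 were higher (51.7% of all genes), with a median of 0.64. With the length and GC trend removed, 10 were higher there (47.1% of all genes), with a median of 0.29. The median in Sm22Cre over floxed was then -1.17. The summed level of the 12 was 458.8 FPKM in Sm22Cre, 1596 in Cdh5Cre and 1017 in floxed. That sum was 54.9% lower in Sm22Cre than in floxed, against 23.9% for the 8 genes. The 3 most abundant were Tnnt2 at 103.6 FPKM in Sm22Cre, 308.6 in Cdh5Cre and 189.3 in floxed, Tnni3 at 60.2, 240.7 and 144.6, and Myl7 at 53.2, 202.3 and 134.7. The authors' status was FAIL in every pair for Tnnt2 and Tnni3, and OK in every pair for 7 of the 12. The part of heart tissue at the aortic root in the values of the 8 genes was not tested.

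Lists of other cell types were read for the order of the 8 genes, which 18% of all genes analysed had. That order was seen in 3 of 5 Schwann and neuronal genes, 3 of 7 adipocyte genes, 3 of 8 fibroblast genes and 1 of 2 lymphatic endothelial genes. It was seen in 2 of 10 endothelial, 1 of 7 macrophage, 1 of 8 smooth muscle and 0 of 5 erythroid genes. Sox10, counted among the Schwann and neuronal genes with that order, passed the filter only through Cdh5Cre. Its level was 0.68 FPKM in Sm22Cre, 1.71 in Cdh5Cre and 0.99 in floxed. Endothelial, fibroblast and smooth muscle medians in Sm22Cre over floxed stood at 0.14, -0.02 and -0.04, against -0.40 for the 8 genes, and adipocyte and macrophage lists at 0.02 each. In Cdh5Cre over floxed the medians were 0.64 for endothelial and 0.46 for fibroblast genes, as large as or larger than the 0.36 of the 8 genes. With the length and GC trend removed they were 0.55 and 0.44, against 0.22 for the 8 genes. Erythroid genes were higher in both Cre groups, with medians of 1.12 in Sm22Cre over floxed and 2.57 in Cdh5Cre over floxed, and their part in the other values was not tested.

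**Figure D5:**
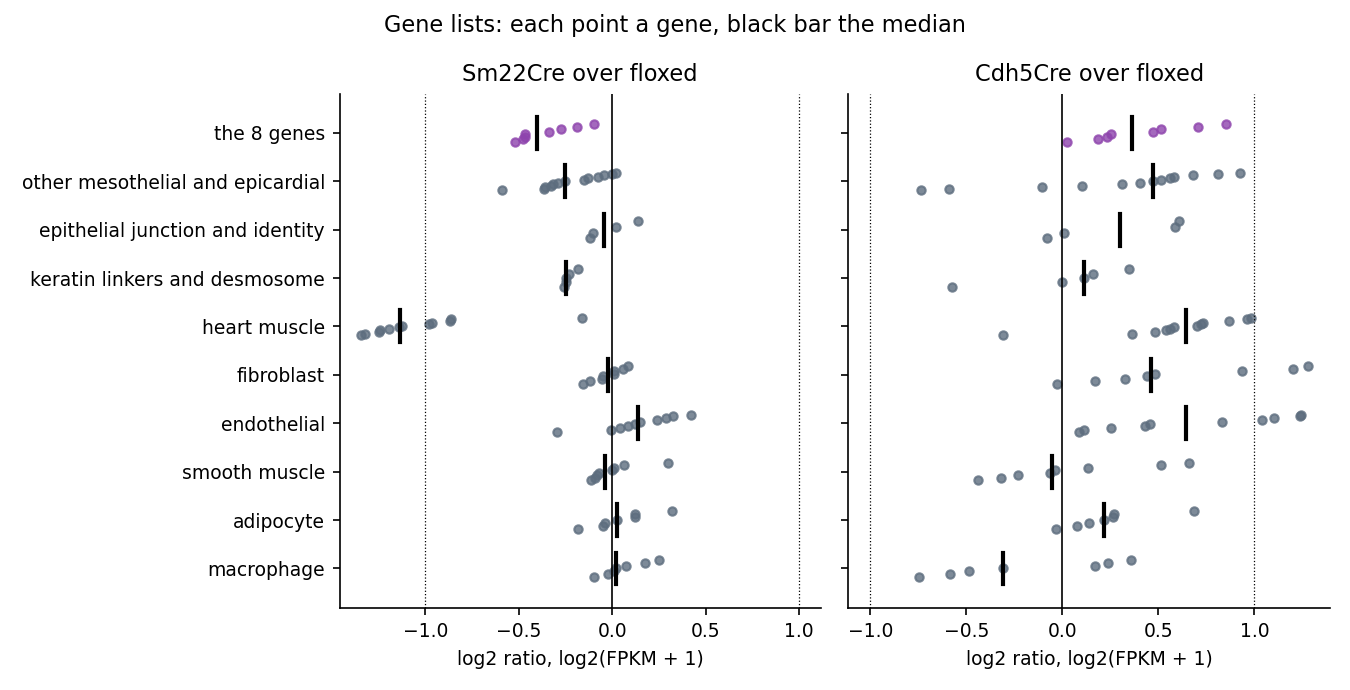
Log2 ratios on log2(FPKM + 1) of each analysed gene (points) and the median (black bar) of the 8 genes and of 9 other lists, in Sm22Cre over floxed and in Cdh5Cre over floxed, with dotted lines at 2-fold. On the left the 8 genes (median -0.40) lie between heart muscle (-1.13) and the other mesothelial (-0.25) and keratin linker (-0.24) lists. The fibroblast, endothelial and smooth muscle lists lie near 0 there. On the right the heart muscle (0.64), endothelial (0.64), other mesothelial (0.47) and fibroblast (0.46) medians lie above the 0.36 of the 8 genes. With the length and GC trend removed (not drawn), these medians became 0.29, 0.55, 0.29 and 0.44, against 0.22 for the 8 genes.

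The genes nearest to the 8 in pattern were sought by the Euclidean distance from their median pair of log2 ratios (-0.40 in Sm22Cre over floxed, 0.36 in Cdh5Cre over floxed), over 3 groups, among 5808 genes with 5 FPKM or more in every group and status OK in every pair. Comp was nearest, at 52.9 FPKM in Sm22Cre, 88.1 in Cdh5Cre and 69.2 in floxed (distance 0.026). Gm12013 (0.056), Apoc1 (0.11), Lbp (0.11) and Mospd3 (0.12) followed. Genes as low as Krt19, Krt8, Upk1b, Wt1 and Lrrn4, all below 5 FPKM in Sm22Cre, were outside the search.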

How the data were processed

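RNA sequencing measured poly-A RNA of frozen mouse aorta in 9 libraries, 3 per group. Per the labels' protocols, stranded libraries were read in pairs on an Illumina instrument. The submitters' processing notes name Cufflinks 1.3.0, Bowtie2 2.1.0, TopHat2 2.0.8, SAMtools 0.1.7 and the build mm9. The annotation and the use of strand are not given in these sources. The authors deposited 1 FPKM value per gene and group, with the 3 libraries of a group combined, for 37668 genes in 3 pairs of groups. FPKM keeps no depth, so no interval or floor is given. Fitted tests across libraries, planned for values per library, could not be made, and a rule of size (2-fold on log2(FPKM + 1)) took their place. A value was said to have moved between settings when its log2 ratio became more than 1.5 times larger or smaller, since no spread was at hand.

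Genes at 1 FPKM or more in at least 1 group were analysed, except for genes with the status HIDATA. Values of Sm22Cre and floxed came from their pair and those of Cdh5Cre from its pair with floxed; 15 genes, none of the 8, had a group value that differed between pairs. Listed starts were taken as counted from 0, since the locus width then equalled the gene length in GENCODE M21 for 13805 genes, against 336 otherwise. GENCODE M21 gave symbols, transcript length and GC content only. The trend was a quadratic fit on log2 length and GC content over 12317 genes (86.6%). The fit was also run on simulated data whose trend was built from the fit's own terms. That run could not show whether its form suits the deposited values. Calculations used Python 3.11.15, pandas 2.3.3 and numpy 2.4.6.

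The members and all lists were chosen with earlier results of these data known. Named genes were the 8 members, genes overlapping their loci, the members of other lists past 2-fold or among the 3 most abundant, the 5 genes nearest in pattern and Agtr1a. Dmkn, Ryr2 and Sox10 lie outside this rule and were named after their values were seen. Wt1os, which neighbours Wt1 without overlapping it, lies outside the rule as well. For lists far from the subject, counts and medians otherwise stand in place of names.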

Additional observations from a re-analysis of the deposited data

How the results depend on the processing

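No paired analysis was possible because the groups share no replicate numbers and the deposited values combine the libraries, which is also why no library could be left out in turn. Other pseudocounts, filters, scalings, the restriction to status OK and the trend removal kept the direction of the 8 genes' median in all 3 comparisons. Its size stayed within 1.5 times except in Cdh5Cre over floxed, where 0.36 became 0.13 on TPM values and 0.22 with the trend removed. Over single genes and settings, 198 values kept their direction (18 values became over 1.5 times larger or smaller, that of 0 included), 5 reversed and 1 came to 0 (Lrrn4 in Cdh5Cre over floxed, quantile normalization). In Cdh5Cre over floxed Krt18 (-0.042), Upk3b (-0.018) and Lrrn4 (-0.19) reversed on TPM values and Krt18 (-0.13) with the trend removed, and in Sm22Cre over Cdh5Cre Krt18 stood at 0.0061 with the trend removed. The counts of genes past 2-fold moved more. There were 90 genes past it in Sm22Cre over floxed (43 higher and 47 lower), against 171 with a pseudocount of 0.1, 38 with the filter at 5 FPKM and 37 with the trend removed (13 and 24). In Cdh5Cre over floxed 271 passed (171 and 100), against 588 with a pseudocount of 0.1, 644 on TPM values (135 and 509) and 80 with the trend removed (60 and 20). In Sm22Cre over Cdh5Cre 234 passed (57 and 177), against 530 with a pseudocount of 0.1, 149 with the filter at 5 FPKM, 463 on TPM values (325 and 138) and 90 with the trend removed (12 and 78). Fewer genes were tested with the filter at 5 FPKM (10208, among them 4 of the 8). Removing the trend changed both the ratios and the genes tested (12317), and the cause was not tested for it or for the other settings. Depth is unknown, so the precision of Wt1, Lrrn4 and the other genes near 1 FPKM cannot be given.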

Other observations

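Genes for proteins that tie keratin and other intermediate filaments to junctions were read as a list. All 5 analysed were lower in Sm22Cre than in floxed (median -0.24), as were 47.9% of all genes, and none passed 2-fold. The 3 most abundant were Jup (plakoglobin) at 59.6 FPKM in Sm22Cre, 70.8 in Cdh5Cre and 70.8 in floxed, Dsp (desmoplakin) at 40.1, 30.4 and 45.7, and Plec (plectin) at 22.5, 30.3 and 27.1. In Cdh5Cre over floxed, 3 of the 5 were higher (51.7% of all genes) and 2 lower (median 0.11). Dsp and Plec had the status FAIL in every pair. Desmosomal genes are expressed in heart muscle as well, and the part of heart tissue in these values was not tested.

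Intermediate filament genes of other cells were read in the same way. All 5 analysed were lower in Sm22Cre than in floxed, as were 47.9% of all genes. Their median of -0.08 lay near percentile 25 of all genes (-0.07). Vim led in level, at 4194 FPKM in Sm22Cre, 4535 in Cdh5Cre and 4274 in floxed. Lmna stood at 171.3, 233.2 and 189.8 FPKM and Des, the filament protein of muscle, at 55.3, 92.4 and 58.1 in the same groups. The list's median in Cdh5Cre over floxed was 0.11, and 4 of the 5 had the order of the 8 genes, as did 18% of all genes. Vim and Lmna had the status FAIL in every pair, and 1 of the 5 genes had the status OK in every pair.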
